A study of Homo sapiens with 8 samples.

Results

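The messenger RNAs (mRNAs) of cohesin and of the proteins that load and release it were followed in processing bodies (P-bodies) and in the cytosol of human acute myeloid leukaemia cell lines. The 10 genes were taken by symbol from the count tables, which hold 60196 uniquely named genes. They are the ring subunits SMC1A, SMC3 and RAD21, the STAG subunits STAG1 and STAG2, the loader genes NIPBL and MAU2, and the release and maintenance factors WAPL, PDS5A and PDS5B. All 10 were found in both tables, and all 10 had enough reads for testing in each line.

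Cohesin is a ring-shaped protein complex that encloses DNA. It holds sister chromatids together from replication until anaphase, and it extrudes the chromatin loops that bring enhancers and promoters together in interphase. Several of its genes, STAG2 among them, are recurrently mutated in myeloid leukaemia. P-bodies are granules in the cytoplasm that gather translationally repressed mRNAs with decay factors and RNA helicases, and A- and U-rich mRNAs are known to be common in them.

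The erythroleukaemia line HEL was studied beside MOLM-13, a leukaemia line with monocytic features. Each line gave 2 libraries of P-body RNA and 2 of the cytosolic fraction, which makes 4 groups and 8 libraries of total RNA from cultured cells. The labels name no genotype, treatment or time that differs between groups, and each line stands for 1 tumour. They do not say that replicates were separate cultures, so each p-value reflects spread among the deposited libraries, possibly technical only. Each line also has a count table of its own, so a difference between lines and a difference between tables cannot be told apart.

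Total counts ran from 5897625 to 18071473 per library, and in each line the P-body libraries were the deeper ones. Erythroid and megakaryocytic markers summed to between 1099 and 2531 CPM (read counts scaled to library size) in HEL and between 27.6 and 45.3 in MOLM-13. Monocytic and granulocytic markers summed to between 1737 and 3308 CPM in MOLM-13 and between 63.1 and 120 in HEL, where MPO and ELANE had no counts. Each line thus carried the markers of its label. Mitochondrially encoded mRNAs moved with the fraction, with 3376 and 3559 CPM in HEL P-body libraries against 6912 and 7819 in the cytosol, and 4640 and 4745 against 9251 and 10582 in MOLM-13. The nuclear-retained RNAs MALAT1, NEAT1 and KCNQ1OT1 together were also lower in P-body libraries, at 583 and 654 CPM against 760 and 852 in HEL, and at 2875 and 2879 against 5353 and 5677 in MOLM-13. All of these sums are on library totals, where the median gene tested changed by -0.39 in HEL and -0.47 in MOLM-13 (log2). With the trimmed-mean (TMM) scaling and threshold used below, all 13 mitochondrial mRNAs were called lower in both lines. By that scaling 2 of the 3 nuclear-retained RNAs were called lower in each line. The exceptions were MALAT1 in HEL (-0.0075) and KCNQ1OT1 in MOLM-13 (-0.21). The part of these fraction differences in the results below was not tested.

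The coding sequences differ in base composition, seen here in whether codons end in A or U or in G or C. Stretches of 20 codons, each chosen so that its share of codons ending in A or T is nearest to that of the whole coding sequence, are shown for the mRNAs with the largest changes in MOLM-13 (SMC3, STAG2, WAPL and PDS5B) and for the pair that departs from them (SMC1A and MAU2). They are DNA-sense coding sequence from GENCODE release 29 (GRCh38), written 5′ to 3′, with codon-ending bases that are A or T in capitals.
SMC3: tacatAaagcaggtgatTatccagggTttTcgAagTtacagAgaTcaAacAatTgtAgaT
STAG2: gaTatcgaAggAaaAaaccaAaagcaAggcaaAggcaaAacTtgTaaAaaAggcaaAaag
WAPL: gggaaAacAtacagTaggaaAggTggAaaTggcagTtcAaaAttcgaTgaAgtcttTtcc
PDS5B: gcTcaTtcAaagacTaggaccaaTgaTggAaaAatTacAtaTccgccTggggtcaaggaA
SMC1A: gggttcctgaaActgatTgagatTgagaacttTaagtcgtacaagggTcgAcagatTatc
MAU2: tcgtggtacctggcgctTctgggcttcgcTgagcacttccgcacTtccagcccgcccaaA

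The stretches of SMC3, STAG2, WAPL and PDS5B each hold 13 A- or T-ending codons of 20, that of SMC1A holds 7, and that of MAU2 holds 4. Those of NIPBL, PDS5A and STAG1, not printed, hold 14, 13 and 12. The printed choice followed the changes, and PDS5A was not called in HEL (log2 change 0.12). In coding coordinates counted from the A of the start codon they span bases 4 to 63 in SMC3, PDS5B and SMC1A, 85 to 144 in STAG2, 16 to 75 in WAPL and 70 to 129 in MAU2. The genes lie on GRCh38 at chr10:110567691-110604636 (SMC3, plus strand), chrX:123960212-124422664 (STAG2, plus), chr10:86435256-86521815 (WAPL, minus), chr13:32586427-32778019 (PDS5B, plus), chrX:53374149-53422728 (SMC1A, minus) and chr19:19320681-19358755 (MAU2, plus). NIPBL lies at chr5:36876759-37066413 (plus), STAG1 at chr3:136336233-136752403 (minus), PDS5A at chr4:39822863-39977956 (minus), and RAD21 on chromosome 8. The stretches are exonic and coding in the annotated transcript with the longest coding sequence.

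The leading comparison asked which cohesin mRNAs took a larger share of the P-body libraries than of the cytosolic ones. A change was called at a Benjamini-Hochberg adjusted p below 0.05 over all genes tested in edgeR's quasi-likelihood test. In HEL, 7 of the 10 mRNAs were higher in P-bodies and 2 were lower, where 27.5% of the 14772 genes tested were called higher and 27.1% lower. The median log2 change of the 10 was 0.67, beside -0.06 over all genes. In MOLM-13, 9 were higher and 1 was lower, where 32.4% of 14089 genes were called higher and 28.5% lower, and the median was 1.23 beside -0.04. Changes of at least 2-fold were called for 3 members in HEL, all higher (12.6% of all genes were that much higher and 6.34% that much lower), and for 6 in MOLM-13, all higher (15.3% and 6.58%). For each of the 10 genes in each line, the P-body pair of libraries, in TMM-scaled CPM, did not overlap the cytosolic pair. The same held for 76.5% of all genes tested in HEL and 79.9% in MOLM-13, so with 2 libraries against 2 this separation is common, while edgeR called 54.6% and 60.8% of genes in either direction.

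The labels name no spike-in, so a change stands relative to what most genes did, and more of an mRNA in P-bodies cannot be told apart from less of other RNA there. With library totals in place of trimmed-mean (TMM) scaling, the median of all genes moved to -0.39 in HEL and -0.47 in MOLM-13, and the share of called genes that were higher fell from 50.3% to 29.004% in HEL and from 53.2% to 28.9% in MOLM-13. On that scale 5 members were called higher and 3 lower in HEL, and 9 and 1 in MOLM-13. The members' median minus the all-gene median lay between 0.66 and 0.83 in HEL and between 1.17 and 1.44 in MOLM-13 over the alternatives tried, apart from removal of the trend on transcript composition described below.

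**Figure D1:**
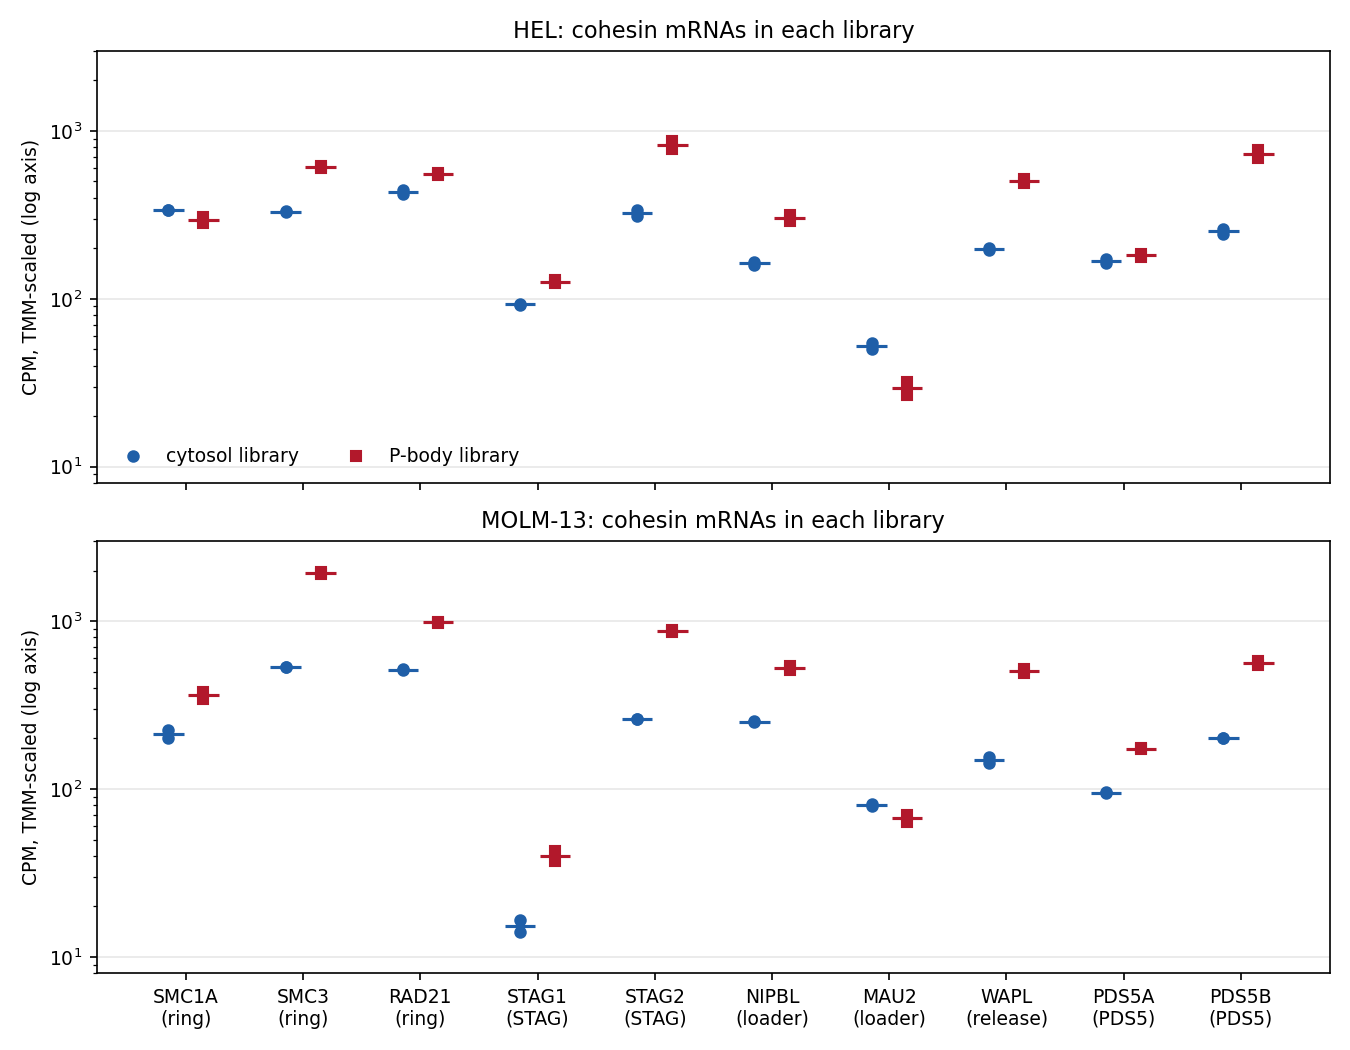
Level of each cohesin mRNA in each library, as CPM on a log axis (upper panel HEL, lower panel MOLM-13; circles are cytosolic libraries, squares are P-body libraries, horizontal lines are means of 2 libraries). P-body libraries lie above cytosolic ones for all genes other than SMC1A and MAU2 in HEL and MAU2 in MOLM-13, and SMC3 in MOLM-13 P-bodies is the highest point, at 1956 CPM.

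The ring consists of SMC1A and SMC3, the long coiled-coil ATPases that join at a hinge, and RAD21, the kleisin that closes the ring and is cut by separase at anaphase. In MOLM-13 all 3 were higher in P-bodies, and in HEL SMC3 and RAD21 were higher and SMC1A lower. SMC3 stood at 618 and 605 CPM in HEL P-body libraries and at 327 and 331 in the cytosol, a log2 change of 0.89 ± 0.067 (SE, n = 2 libraries per group; edgeR adjusted p = 2.8e-08). In MOLM-13 it stood at 1956 and 1918 CPM in P-bodies and at 530.3 and 533 in the cytosol. Replicates of SMC3 were close together in every group, and the P-body libraries were the high ones in both lines. The MOLM-13 change was 3.64-fold, with a log2 value of 1.87 ± 0.042 (SE; edgeR adjusted p = 3.2e-21), the largest of the 10 in either line.

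RAD21 had 563 and 544 CPM in HEL P-bodies and 443 and 420 in the cytosol, a log2 change of 0.36 ± 0.068 (SE; edgeR adjusted p = 0.000403). MOLM-13 P-bodies held 992 and 974 CPM and 510.1 and 515 in the cytosol, a change of 0.94 ± 0.042 (SE; edgeR adjusted p = 7e-16). The kleisin mRNA was therefore higher in P-bodies in both lines, and by less than SMC3 in each. With library totals the HEL value was 0.03 and lost its call (edgeR adjusted p = 0.63). Annotated exons of RAD21 and UTP23, which run in opposite directions, share 518 bases in the annotation. Counts of UTP23 were 2676 and 2714 in HEL P-bodies against 756 and 881 in the cytosol, and 4711 and 5264 against 1242 and 1422 in MOLM-13, and whether reads passed between these genes was not tested.

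SMC1A was the ring subunit whose called direction differed between the lines, a difference tested further on. In HEL it had 309 and 282 CPM in P-bodies and 337 and 340 in the cytosol, so the P-body libraries were the lower ones, with a log2 change of -0.20 ± 0.072 (SE; edgeR adjusted p = 0.0312). In MOLM-13 it had 380 and 345 CPM in P-bodies and 223 and 202 in the cytosol, a change of 0.77 ± 0.057 (SE; edgeR adjusted p = 1.4e-11). The HEL call was kept in 6 of 12 alternatives. Among these were library totals (-0.52, edgeR adjusted p = 2.59e-05) and removal of the trend on transcript composition (-0.29, edgeR adjusted p = 0.00405). The decrease was small, however, and rested on few libraries. Without the second HEL P-body library it was -0.05 (edgeR adjusted p = 0.683), without the first cytosolic library -0.21 (0.0845) and without the second -0.19 (0.128). It was also not called with relative-log-expression (RLE) size factors (-0.14, edgeR adjusted p = 0.219), with DESeq2 (-0.14, adjusted p = 0.208) or in a fit of all 8 libraries (-0.12, edgeR adjusted p = 0.174).

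The STAG subunits bind RAD21 and take part in placing cohesin on chromatin, and a complex holds either STAG1 or STAG2. STAG2 had 865 and 777 CPM in HEL P-bodies and 340 and 310 in the cytosol, a log2 change of 1.34 ± 0.078 (SE; edgeR adjusted p = 1.75e-09). MOLM-13 P-body libraries held 891 and 867 CPM and 263 and 262 in the cytosol, a change of 1.74 ± 0.045 (SE; edgeR adjusted p = 1.83e-20). The P-body level of STAG2 was thus 2.53-fold the cytosolic one in HEL and 3.35-fold in MOLM-13.

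STAG1 was the less abundant paralog throughout. It had 130 and 124 CPM in HEL P-bodies and 91.9 and 93.7 in the cytosol, a log2 change of 0.45 ± 0.080 (SE; edgeR adjusted p = 0.000235). In MOLM-13 it had 42.6 and 37.5 CPM in P-bodies and 16.5 and 14.0 in the cytosol, a change of 1.40 ± 0.13 (SE; edgeR adjusted p = 4.92e-10), measured on 112 to 401 counts per library. With library totals the HEL value was 0.12 and lost its call (edgeR adjusted p = 0.169). Annotated exons of STAG1 and of PCCB on the opposite strand share 1664 bases. PCCB had 3081 to 5751 counts in HEL libraries and 228 to 318 in MOLM-13 libraries, and since the strand setting of the counting is not given, reads in the shared bases cannot be told apart.

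NIPBL and MAU2 form the loader, in which NIPBL stimulates the cohesin ATPase and MAU2 binds the NIPBL amino terminus. Their mRNAs moved in opposite directions. NIPBL had 313 and 291 CPM in HEL P-bodies and 166 and 159 in the cytosol, a log2 change of 0.89 ± 0.074 (SE; edgeR adjusted p = 7.74e-08). In MOLM-13 it had 538 and 513 CPM in P-bodies and 254 and 249.8 in the cytosol, a change of 1.06 ± 0.048 (SE; edgeR adjusted p = 7.26e-16). NIPBL was thus 1.86-fold higher in P-bodies in HEL and 2.09-fold in MOLM-13.

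MAU2 was the lowest of the 10 in HEL. It had 32.1 and 26.6 CPM in HEL P-bodies and 50.3 and 54.3 in the cytosol, which is 1.78-fold lower in P-bodies, a log2 change of -0.83 ± 0.11 (SE; edgeR adjusted p = 1.99e-05). The MOLM-13 levels were 70.2 and 63.6 CPM in P-bodies and 78.8 and 81.9 in the cytosol, a change of -0.26 ± 0.077 (SE; edgeR adjusted p = 0.00471). MAU2 was the only member called lower in both lines by these tests, and the MOLM-13 call was fragile. That call was kept in 8 of 12 alternatives, among them library totals (-0.70, edgeR adjusted p = 1.89e-07). It was lost without the second P-body library (-0.18, edgeR adjusted p = 0.124), without the second cytosolic library (-0.22, 0.0649) and with DESeq2 (-0.26, adjusted p = 0.0608). Removal of the trend on transcript composition turned the MOLM-13 value to 0.11 (edgeR adjusted p = 0.241). Exons of MAU2 and SUGP1 on the other strand share 164 bases.

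WAPL opens the ring and takes cohesin off chromatin, and PDS5A and PDS5B are the paralogous proteins that bind the ring beside WAPL. WAPL had 515 and 489 CPM in HEL P-bodies and 195 and 201 in the cytosol, a log2 change of 1.34 ± 0.070 (SE; edgeR adjusted p = 5.81e-10). Its MOLM-13 levels were 521 and 490.1 CPM in P-bodies and 155 and 142 in the cytosol, a change of 1.77 ± 0.055 (SE; edgeR adjusted p = 3.72e-19). The release factor was thus among the 3 mRNAs of the set with at least 2-fold higher P-body levels in both lines, together with STAG2 and PDS5B.

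PDS5B had 767 and 688 CPM in HEL P-bodies and 259 and 244 in the cytosol, a 2.89-fold higher level and the largest change of the 10 in HEL, with a log2 value of 1.53 ± 0.076 (SE; edgeR adjusted p = 3.46e-10). In MOLM-13 it had 582 and 547 CPM in P-bodies and 203 and 201 in the cytosol, a change of 1.48 ± 0.050 (SE; edgeR adjusted p = 1.95e-18). Its paralog PDS5A was called in MOLM-13 and not in HEL. It had 186 and 178 CPM in HEL P-bodies and 173 and 162 in the cytosol, a log2 change of 0.12 ± 0.075 (SE; edgeR adjusted p = 0.202). Its levels in MOLM-13 were 172 and 175 CPM in P-bodies and 94.4 and 95.5 in the cytosol, a change of 0.87 ± 0.061 (SE; edgeR adjusted p = 4.36e-12). The HEL value of PDS5A depended on the setting, at 0.24 without the second P-body library (edgeR adjusted p = 0.0307), 0.20 in the fit of all 8 libraries (0.0189) and -0.21 with library totals (0.0225).

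**Figure D2:**
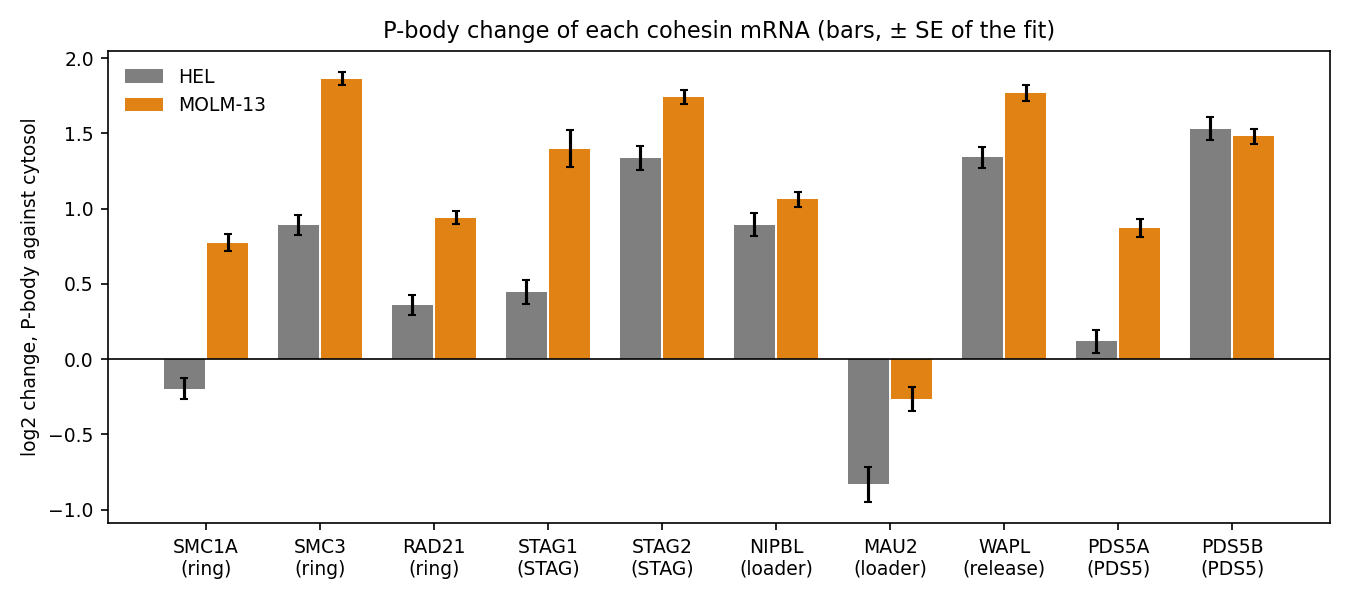
Log2 change of each cohesin mRNA in P-bodies against cytosol (grey HEL, orange MOLM-13; bars are edgeR estimates and whiskers ± SE of the fit, 2 libraries per group). SMC1A lies on opposite sides of 0 in the 2 lines, MAU2 lies below 0 in both, and the other 8 lie above 0 in both, although PDS5A in HEL turned to -0.21 with library totals.

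Partner and paralog genes shift their proportions where their changes differ, and the counts of a pair can be compared within 1 library without any scaling between libraries. MAU2 made up 9.29% and 8.37% of the counts of MAU2 and NIPBL together in HEL P-body libraries and 23.3% and 25.4% in cytosolic ones. In MOLM-13 it made up 11.5% and 11.03% in P-bodies and 23.7% and 24.7% in the cytosol. The loader pair was therefore tilted towards NIPBL in all 4 P-body libraries.

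PDS5A made up 19.5% and 20.5% of the PDS5 counts in HEL P-bodies and 39.99% and 39.94% in the cytosol. In MOLM-13 the shares were 22.8% and 24.3% in P-bodies and 31.8% and 32.2% in the cytosol. STAG1 made up 13.0% and 13.7% of the STAG counts in HEL P-bodies and 21.3% and 23.2% in the cytosol, so that in HEL P-bodies the paralog pairs were tilted towards PDS5B and STAG2. In MOLM-13 the STAG1 share was 4.56% and 4.14% in P-bodies and 5.92% and 5.09% in the cytosol. The exact 95% binomial intervals were 4.13% to 5.02% and 3.71% to 4.62% in P-bodies. In the cytosol they were 4.90% to 7.08% and 4.22% to 6.07%. Between the fractions, only the intervals of the second P-body and the first cytosolic library did not overlap. SMC1A, a pair with SMC3 that was added after the values were seen, made up 33.3% and 31.8% of the counts of both in HEL P-bodies against 50.8% and 50.7% in the cytosol, and 16.3% and 15.2% against 29.6% and 27.5% in MOLM-13. These intervals cover counting error only, and 2 libraries against 2 cannot reach an exact p below 0.05, so no test is given for a share. Whether reads of PCCB entered the STAG1 shares was not tested.

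**Figure D3:**
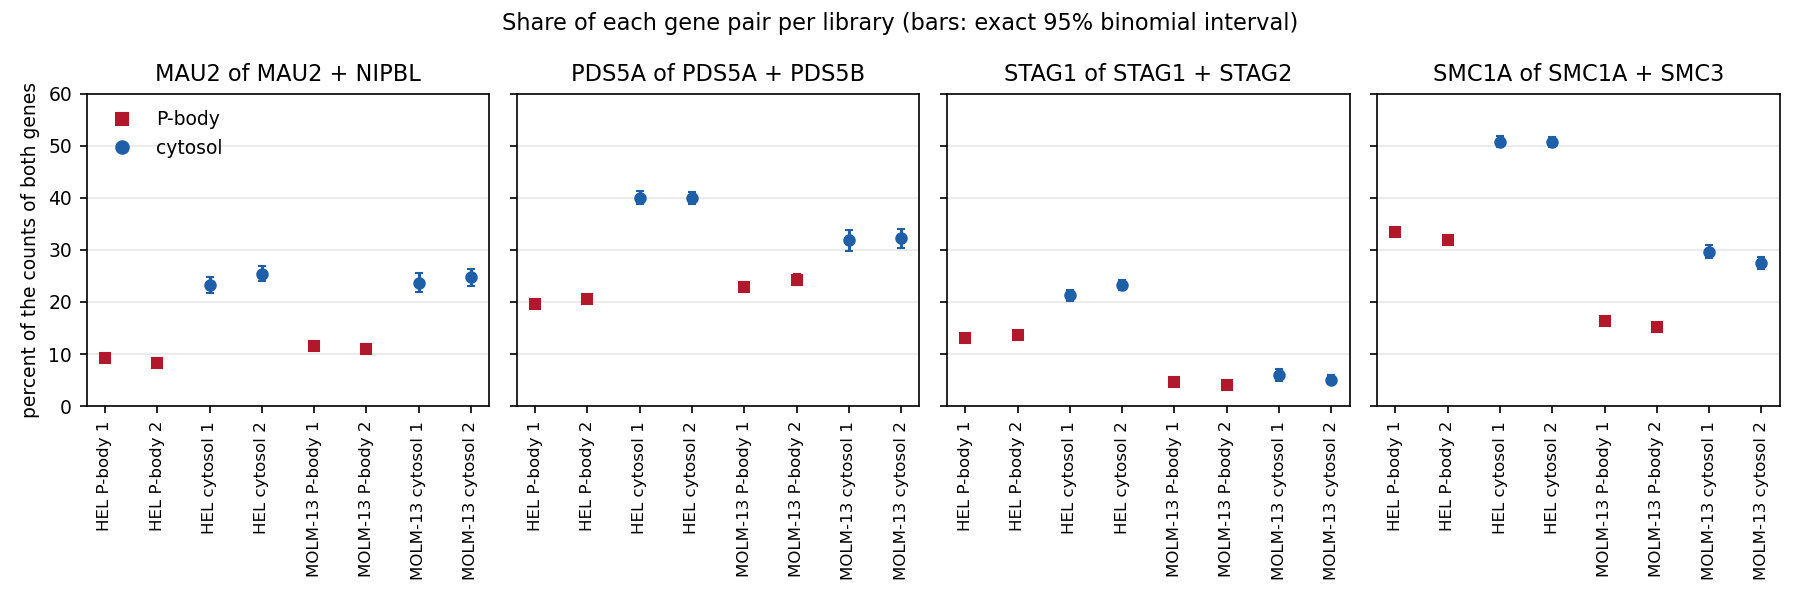
Share of the counts of a gene pair that belonged to the gene named first, in percent, for each of the 8 libraries (squares P-body, circles cytosol; whiskers are exact 95% binomial intervals). Within each line P-body shares lie below cytosolic shares in all 4 panels. For STAG1 in MOLM-13 the intervals of the fractions overlap, other than those of the second P-body and the first cytosolic library.

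Levels of different genes were compared per length, as RPKM, reads per kilobase of transcript scaled by library size, on a scale shared by all 8 libraries. In the HEL cytosol the order of mean RPKM was RAD21 (111), SMC3 (77.2), STAG2 (60.1), SMC1A (33.4), PDS5B (32.4), WAPL (30.2), PDS5A (22.5), NIPBL (15.05), STAG1 (14.8) and MAU2 (10.1), where SMC1A and PDS5B, and NIPBL and STAG1, overlapped between libraries. In HEL P-bodies STAG2 (160), SMC3 (151) and RAD21 (151) overlapped at the top, followed by PDS5B (98.9), WAPL (80.8), SMC1A (30.8) and NIPBL (29.5), which overlapped each other, PDS5A (25.8), STAG1 (21.3) and MAU2 (5.99). RAD21, SMC3 and STAG2 thus led in both HEL fractions. SMC1A lay below PDS5B and WAPL in P-bodies, and in the cytosol it overlapped PDS5B.

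In the MOLM-13 cytosol RAD21 (143) and SMC3 (135) led, before STAG2 (52.6), PDS5B (28.2), the overlapping NIPBL (25.2), WAPL (24.6) and SMC1A (22.7), then MAU2 (16.8), PDS5A (13.8) and STAG1 (2.64). In MOLM-13 P-bodies SMC3 (455) stood above RAD21 (254) and STAG2 (163), before the overlapping WAPL (77.2) and PDS5B (72.8), then NIPBL (48.7), SMC1A (35.8), PDS5A (23.4), MAU2 (13.0) and STAG1 (6.39). The median over 17032 genes was between 3.94 and 4.35 RPKM in the 4 groups, so STAG1 in the MOLM-13 cytosol was the only member mean below the median of its group.

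The cytosolic levels were also compared between lines, as a test on all 8 libraries. Of the 10 mRNAs, 4 were higher in MOLM-13 (SMC3, RAD21, NIPBL and MAU2) and 6 were lower, where 44.2% of 17477 genes were called higher and 40.1% lower (84.4% in either direction), so the count itself is close to the background. No member was at least 2-fold higher, a call made for 35.2% of genes, and 1 was at least 2-fold lower, where 29.2% of genes were. That was STAG1, which was 5.63-fold lower in the MOLM-13 cytosol (log2 -2.49 ± 0.11, SE; edgeR adjusted p = 5.28e-15). PCCB, whose exons share bases with those of STAG1, had 4650 and 5751 counts in the HEL cytosol and 234 and 275 in MOLM-13. Whether its reads entered the STAG1 counts was not tested. SMC3 was higher by 0.81 ± 0.055 on the log2 scale (SE; edgeR adjusted p = 1.13e-11), and PDS5A was lower, at -0.70 ± 0.072 (SE; edgeR adjusted p = 9.81e-09). The other 7 lay between -0.56 (SMC1A) and 0.75 (NIPBL), beside an all-gene median of 0.13. With a mean CPM of at least 5, STAG2 (0.10) and PDS5B (0.0883) turned positive and 3 members were called lower. In such bulk libraries fewer expressing cells and less RNA per cell cannot be told apart.

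Whether the P-body change differed between the lines was tested as the interaction of fraction and line. It was larger in MOLM-13 than in HEL for 5 members and smaller for none, where 9.15% of 17477 genes were called higher and 13.0% lower. At least 2-fold differences were called for 0 members, and for 1.50% of genes in the higher and 3.85% in the lower direction. In the smaller direction PDS5B had an unadjusted p below 0.05 (0.0178). DESeq2 called 0 members smaller, while the test with a mean CPM of at least 5 did call a member smaller. The differences in log2 change were 0.78 ± 0.099 for SMC1A (SE; edgeR adjusted p = 6.5e-06), 0.78 ± 0.076 for SMC3 (3.08e-07), 0.76 ± 0.15 for STAG1 (0.000591), 0.56 ± 0.099 for PDS5A (0.000241) and 0.39 ± 0.080 for RAD21 (0.00109). The 3 ring mRNAs, STAG1 and PDS5A therefore make up the called set. The limits given above for exons that RAD21 shares with UTP23, and STAG1 with PCCB, hold here too. These 5 stayed called in all 15 alternatives tried, and in some of the alternatives other members were called as well, in either direction.

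The other 5 were not called, at 0.38 ± 0.15 for MAU2 (SE; edgeR adjusted p = 0.0686), 0.23 ± 0.092 for WAPL (0.0749), 0.22 ± 0.091 for STAG2 (0.102), -0.02 ± 0.090 for NIPBL (0.907) and -0.24 ± 0.093 for PDS5B (0.0716). The joint scaling of 8 libraries sets the zero point here, and differences between the separate line fits are not the same numbers. The all-gene median was -0.11, and between -0.14 and 0.19 when a library was left out. Relative to it the called values were 0.89 for SMC1A and SMC3, 0.87 for STAG1, 0.67 for PDS5A and 0.50 for RAD21. The share of called genes that were higher was 41.3%, and 51.7% with library totals. Without the first HEL P-body library 9 members were called larger in MOLM-13, and without either HEL cytosolic library 8.

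The selection of the members did not use transcript features, and 8 of them were alike in how their codons end. The share of codons ending in G or C (GC3) lay between 31.7% (NIPBL) and 38.05% (STAG1) for 8 members, and was 64.8% for SMC1A and 81.1% for MAU2, while the median over coding genes tested was 57.5% in HEL and 57.7% in MOLM-13. The stretches printed above show this contrast base by base. The coding sequences ranged from 1842 bases in MAU2 to 8415 in NIPBL, against a median of 1425 among HEL-tested genes, so all 10 were longer than that median. The 3′ untranslated regions (UTRs) ranged from 334 bases in SMC3 to 5954 in SMC1A, and their GC content from 26.3% in SMC3 to 55.2% in MAU2.

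Other genes of similar GC3 behaved in a comparable direction. In the class from 30% to 40% GC3, which holds 8 members, 72.5% of 2031 genes were higher in HEL P-bodies and 5.91% lower, with a median log2 change of 0.77. STAG2, WAPL, PDS5B, SMC3 and NIPBL lay above that median in HEL, and RAD21, STAG1 and PDS5A below it. In MOLM-13, 83.1% of 1925 genes of the class were higher and 2.23% lower, with a median of 1.02, which all of the 8 but RAD21 and PDS5A exceeded.

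MAU2 sits in the class of at least 80% GC3, where 54.9% of 1197 genes were lower in HEL (median -0.55) and 69.2% of 1163 in MOLM-13 (median -0.68). SMC1A sits in the class from 60% to 70%. There 10.4% of 2124 genes were higher and 45.4% lower in HEL, with a median of -0.31, and 14.0% of 1995 were higher and 37.7% lower in MOLM-13, with a median of -0.20. SMC1A followed the direction of its class in HEL and was on the less common side in MOLM-13.

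Across the 10 members, Pearson's r of the log2 change with GC3 was -0.85 in HEL and -0.83 in MOLM-13. Without MAU2 and SMC1A, the members of highest GC3, it was -0.74 and -0.25 (n = 8 genes), so in MOLM-13 the relation rested on those genes. Other measures of base composition gave values of like size. With the GC content of the whole transcript r was -0.86 in HEL and -0.87 in MOLM-13 (-0.72 and -0.44 without those genes), and with that of the 3′ UTR it was -0.85 and -0.88 (-0.49 and -0.53). Across all coding genes r with GC3 was -0.61 in HEL (11941 genes) and -0.70 in MOLM-13 (11230 genes). These are correlations across genes measured in the same libraries, and genes are not independent replicates.

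**Figure D4:**
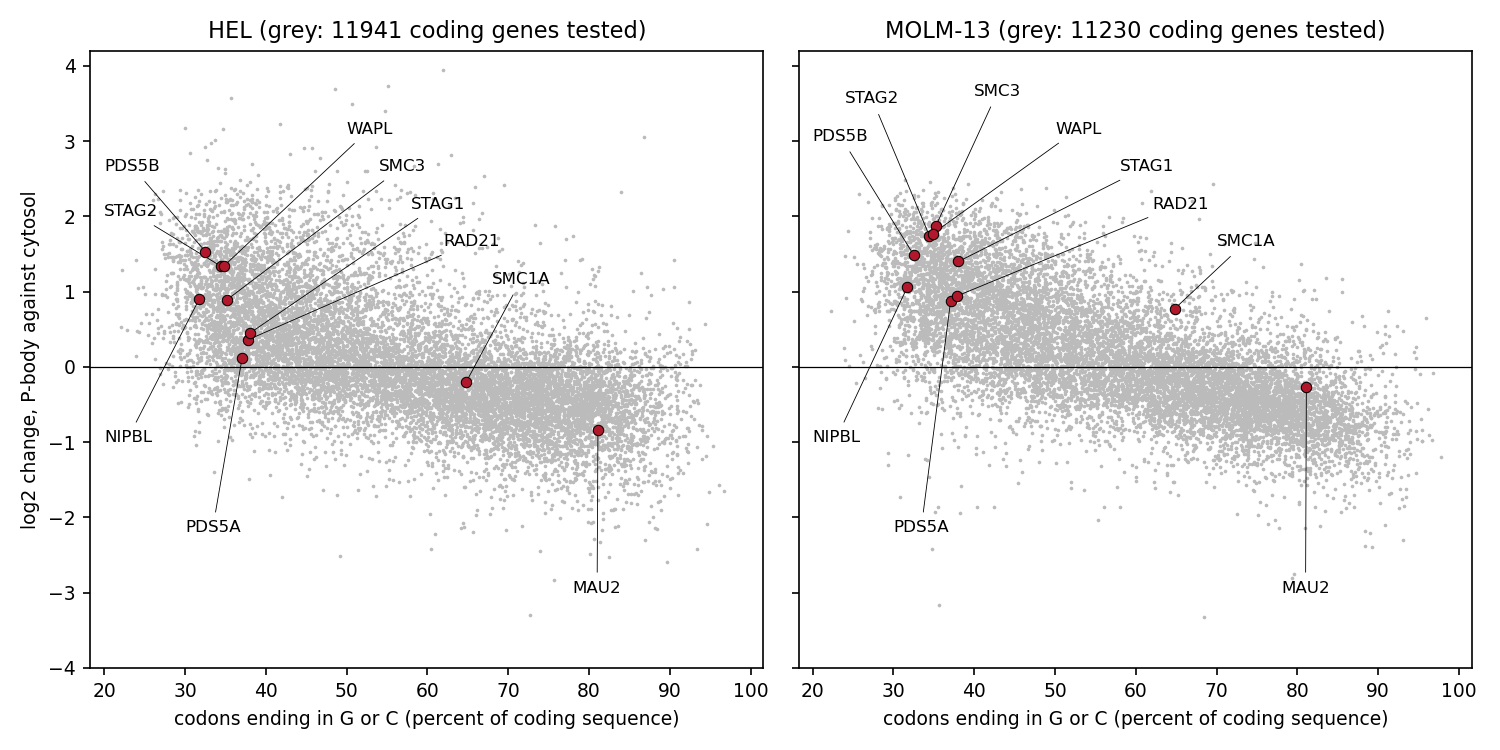
Log2 change in P-bodies against cytosol plotted on the percent of codons ending in G or C, with all coding genes tested in grey and the 10 members in red (left HEL, 11941 genes, of which 1 lies beyond the axis; right MOLM-13, 11230 genes). The 8 members between 31.7% and 38.05% lie above 0 in both lines (PDS5A in HEL turned negative with library totals), MAU2 at 81.1% lies below 0, and SMC1A at 64.8% lies below 0 in HEL and at 0.77 in MOLM-13.

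Since the change varied with composition over the whole transcriptome, the trend of the log2 change on transcript GC content and log length was estimated from all genes and entered as an offset, and the members were tested again. In HEL, 3 members were then called higher and 4 lower, with a median of -0.02, where 23.1% of 14511 genes were called higher and 21.4% lower, so the higher count is near the background. STAG2 (0.56 ± 0.077, SE; edgeR adjusted p = 3.16e-05), WAPL (0.75 ± 0.069; 6.35e-07) and PDS5B (0.64 ± 0.075; 6.58e-06) were the 3 that stayed higher. SMC3 (0.16, adjusted p = 0.0576) and NIPBL (0.18, 0.0570) were no longer called. SMC1A (-0.29, 0.00405) and MAU2 (-0.36, 0.0194) stayed lower. RAD21 (-0.20, 0.0245) and PDS5A (-0.44, 0.000244) were now called lower, and STAG1 (-0.20, 0.0561) turned negative without a call.

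In MOLM-13, 9 members stayed higher after the trend was removed, with a median of 0.65, where 29.6% of 13828 genes were called higher and 18.4% lower and the all-gene median was 0.06. WAPL (1.11 ± 0.054, SE; edgeR adjusted p = 1.46e-14), SMC3 (1.09 ± 0.041; 1.47e-16) and STAG2 (0.96 ± 0.045; 7.56e-15) had the highest values, and RAD21 (0.27) and PDS5A (0.25) the lowest of those called. MAU2 turned from -0.26 to 0.11 and was not called (adjusted p = 0.241). STAG2, WAPL and PDS5B were called higher in both lines with the trend and without it, and in the other alternatives their 66 values were all called, the lowest at 1.01.

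**Figure D5:**
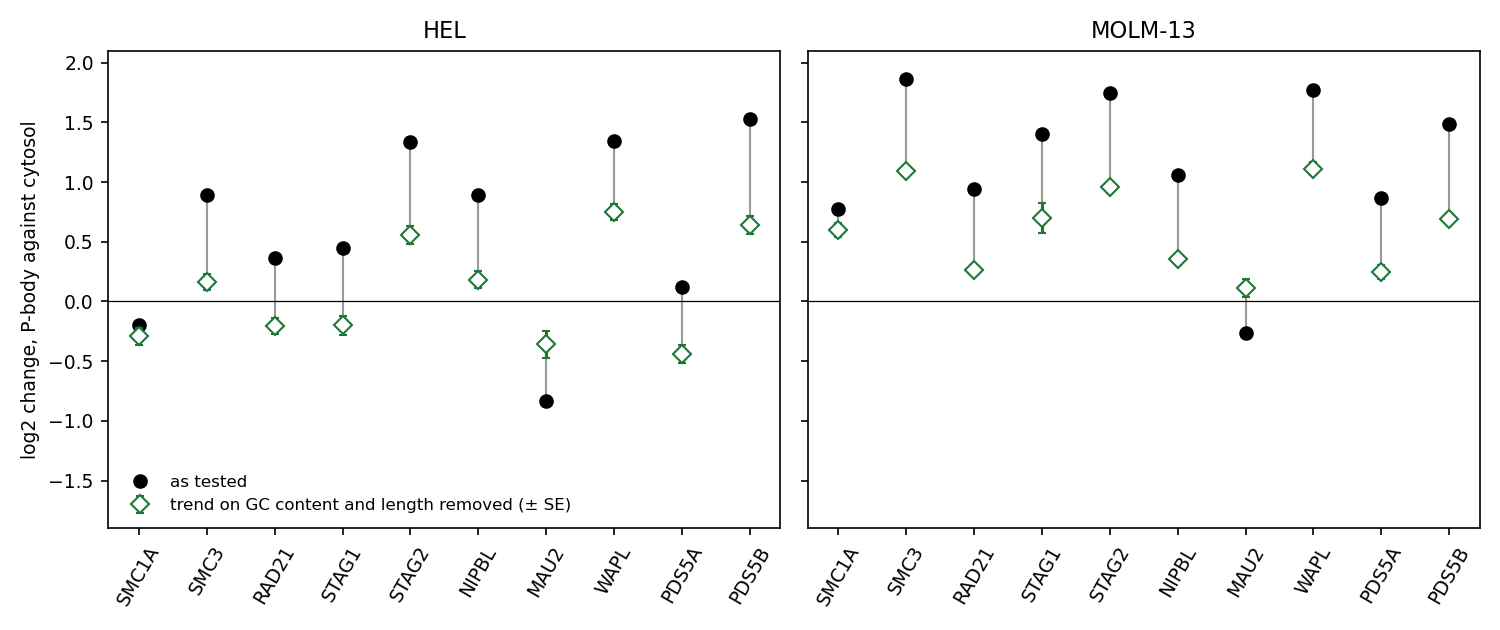
Log2 change in P-bodies against cytosol for each member as tested (black circles) and once that trend was taken out (open green diamonds, whiskers ± SE), in HEL (left) and MOLM-13 (right). Removal of the trend moves RAD21, STAG1 and PDS5A below 0 in HEL, while in MOLM-13 all 10 diamonds lie above 0.

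Proteins that establish, protect and dissolve cohesion were examined as a list of 17 genes, of which 16 were tested in each line. In HEL, 7 were higher in P-bodies and 5 lower, with a median log2 change of 0.21, and in MOLM-13, 8 were higher and 2 lower, with a median of 0.39. The shares called higher were 43.8% and 50%, beside 27.5% and 32.4% of all genes, and those called lower were 31.2% and 12.5%, beside 27.1% and 28.5%, so the lower share in HEL is close to the background. With library totals 6 were higher and 6 lower in each line and the medians turned to -0.11 and -0.05, beside all-gene medians of -0.39 and -0.47. ESCO1 and ESCO2 acetylate SMC3, and SGO1 (shugoshin) protects cohesin at centromeres. In HEL the highest changes of the list were those of SGO1 (1.89 ± 0.083), ESCO2 (1.63 ± 0.085) and ESCO1 (1.57 ± 0.080), each with its SE. ESPL1, the separase that cleaves RAD21, fell by 0.88 on the log2 scale, the mitotic kinase PLK1 fell by 0.56, and the helicase DDX11, which has near-identical copies that may share its reads, fell by 0.40.

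In MOLM-13 the highest were TIPIN (2.27), a replication fork protein, ESCO1 (2.01) and SGO1 (1.82). The lower ones were CDCA5 (-0.67), whose product sororin counteracts WAPL, and PLK1 (-0.57). CTCF, the DNA-binding protein at which extruding cohesin halts, was at 0.77 in HEL and 1.21 in MOLM-13, and it was picked after its values were seen. The other genes named from this list are the extremes among those called.

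Condensin and the SMC5/6 complex are the related ring complexes of chromosome compaction and of DNA repair. Of the 8 condensin genes, 4 were higher and 2 lower in HEL (median 0.19), and 5 were higher and 2 lower in MOLM-13 (median 0.74). Read against the same all-gene shares, the 25% called lower in each line is no more than the background. The ATPases SMC4 (1.15 in HEL, 1.71 in MOLM-13) and SMC2 (1.099 and 1.73) were among the highest in both lines, as was NCAPG2 (0.57 and 1.69), while NCAPD2 was lower in both (-0.99 and -0.52), joined by NCAPD3 in HEL (-0.76) and NCAPH2 in MOLM-13 (-0.30). With library totals the condensin counts were 3 higher and 4 lower in HEL (median -0.14) and 4 and 3 in MOLM-13 (median 0.31). Of the SMC5/6 genes, 6 of 9 were higher and 2 lower in HEL (median 0.77), and 5 of 8 were higher and 2 lower in MOLM-13 (median 0.67), so that the lower shares of 22.2% and 25% also lie under those of all genes. SLF1, a factor that brings SMC5/6 to DNA, led in both lines (2.17 and 1.70), with SLF2 at 1.09 and 1.43, SMC5 at 1.505 in MOLM-13 and EID3, at 8 to 22 counts per library, at 1.25 in HEL. NSMCE1 (-0.36 and -0.30) and NSMCE3 (-0.32 and -0.47) were the lower ones. The HEL calls of EID3 (0.92 with library totals) and NSMCE3 (-0.26 with RLE factors) were lost under another scaling, and with library totals 4 SMC5/6 genes were higher in each line, with 2 lower in HEL and 3 in MOLM-13.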

How the data were processed

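RNA of P-bodies and of the fraction titled "cyto", taken here as cytosolic, was sequenced in 8 libraries, extracted with a miRNeasy Micro kit and prepared with a NEBNext Ultra II RNA kit, per the labels. The authors deposited unnormalized counts of reads for each gene symbol, and these whole numbers add up differently in every library. STAR, SAMtools 1.12, DESeq2 and the build GRCh38 appear in the submitters' processing notes. The P-body isolation, read counter, annotation release and strand setting were not given in the sources used here.

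From these counts, 112 symbols that stood on 1348 rows were left out (0.0193% to 0.0477% of counts). Of the remaining 60196 symbols, 56986 were matched to GENCODE release 29. Genes were filtered with filterByExpr (smallest count 10), scaled by TMM and tested with edgeR 4.0.16 in R 4.3.3 (quasi-likelihood, Benjamini-Hochberg over all genes tested, threshold 0.05), on 4 libraries per line, or on all 8 for differences between lines. CPM and RPKM were computed from the counts with TMM-scaled library sizes, apart from the following. The marker, mitochondrial and nuclear-retained sums and the CPM of SMC1B used library totals. Codon, GC and length values were taken per gene from the annotated transcript with the longest coding sequence, or from the longest transcript where none was coding. Alternatives were RLE size factors, library totals, no filter, a mean CPM of at least 5, DESeq2 1.42.0, the replicate number as a block, an offset for the trend on GC content and length (mgcv 1.9.3), a fit of all 8 libraries, a 2-fold minimum, and leaving out each library. Scripts were tested on simulated data.

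Replicates of a group differed by more than sampling noise (chi-square per degree of freedom 1.87 to 6.15), so none was a repeat deposit. edgeR's common biological variation coefficient came to 0.0781 for HEL and 0.0382 for MOLM-13. All 10 members are described, and of each other list at most the 3 called genes with the highest and the 3 with the lowest log2 change are named per line. The members, lists and tests were chosen with earlier results of these data known.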

Additional observations from a re-analysis of the deposited data

Results flagged for a closer look

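The P-body change differed between the cell lines for 5 of the 10 mRNAs by the interaction test of edgeR, each larger in MOLM-13 than in HEL. Over all 17477 genes tested, 9.15% were called larger in MOLM-13 and 13.0% smaller. The difference in log2 change was 0.78 for SMC1A (edgeR adjusted p = 6.5e-06), 0.78 for SMC3 (3.08e-07), 0.39 for RAD21 (0.00109), 0.76 for STAG1 (0.000591) and 0.56 for PDS5A (0.000241). All 5 were called in each of 15 alternatives, with the lowest values at 0.69, 0.70, 0.30, 0.65 and 0.48 in that order. The lines were deposited as separate tables, so line and table cannot be told apart. Whether reads of UTP23 and PCCB, whose exons overlap those of RAD21 and STAG1, entered these values was not tested.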

How the results depend on the processing

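Of the members' values, 104 of 120 kept direction and call over 12 alternatives in HEL, 116 of 120 in MOLM-13, 118 of 150 over 15 alternatives for the line difference and 143 of 150 for the cytosol contrast. In HEL, 1 member was lower with RLE size factors, with DESeq2 and in the fit of all 8 libraries, and library totals called 6761 genes lower. Removal of the trend left 3 members higher and 4 lower of all 10 in HEL, and in MOLM-13 no member (0) lower and 2551 genes lower. In MOLM-13, library totals called 2903 genes higher and 7154 lower, and DESeq2 called 0 members and 2607 genes lower. For the line difference, 8 members were higher with library totals and 1 was lower with a mean CPM of at least 5, and DESeq2 called 1363 genes lower and the trend-removed test 1326. For the cytosol contrast, 3 members were lower with the CPM minimum (4945 genes higher, 4645 lower) and 3 with the trend removed. A 2-fold minimum left 3 members higher, 0 lower and 1855 and 937 genes in HEL, 0 members lower and 2150 and 927 genes in MOLM-13, 0 members and 262 and 672 genes for the line difference, and 0 and 1 members in the cytosol. The cause of these changes was not tested, except that fewer genes pass a stricter threshold.

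Direction turned for PDS5A in HEL with library totals (-0.21), and with the trend removed for RAD21 (-0.20), STAG1 (-0.20) and PDS5A (-0.44) in HEL and MAU2 in MOLM-13 (0.11). For the line difference, NIPBL was 0.0489 with RLE factors, 0.0553 with library totals, 0.0414 with no filter, 0.0489 with DESeq2 and 0.23 with the trend removed, where PDS5B was 0.11. In the cytosol contrast, STAG2 was 0.10 and PDS5B 0.0883 with the CPM minimum, and STAG2 was 0.22 and WAPL 0.0342 with the trend removed.

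With 1 library left out, where the lone library was assumed to vary like the other groups, 7 to 8 members were higher and 1 to 2 lower in HEL (3553 to 4185 and 3049 to 3675 genes), 9 to 9 higher and 0 to 1 lower in MOLM-13 (4236 to 4401 and 3145 to 3390), 5 to 9 higher and 0 to 1 lower for the line difference (1198 to 3441 and 880 to 2054), and 4 to 4 higher and 6 to 6 lower in the cytosol (7169 to 8221 and 6690 to 7596). The line difference of NIPBL then ran from -0.0861 (without the second HEL P-body library) to 0.34 and that of PDS5B from -0.33 to 0.15.

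The labels do not say whether same-numbered libraries came from the same culture. Their deviations correlated at 0.11 in HEL and -0.018 in MOLM-13, which cannot decide it, since noise added after fractionation could hide a pairing. With the replicate number as a block, the members called higher and lower were 7 and 2 in HEL, 9 and 1 in MOLM-13, 5 and 0 for the line difference and 4 and 6 in the cytosol, and the genes were 4024 and 3972, 4574 and 4015, 1547 and 2166, and 7681 and 6991. The block changed no member's call. With 2 libraries per group and 112 to 401 counts for STAG1 in MOLM-13, depth limits that gene most.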

Other observations

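The germline counterparts of the cohesin subunits were read as a list of 4 genes (SMC1B, STAG3, REC8 and RAD21L1). SMC1B, the meiotic counterpart of SMC1A, had no counts in the 4 HEL libraries, where 3 counts would equal 0.166 to 0.228 CPM of the library total. In MOLM-13 it had 373 and 269 counts in P-bodies and 64 and 101 in the cytosol. That is 33.9 and 27.3 CPM of the totals against 10.9 and 14.2. The log2 change was 1.27 with library totals and 1.71 ± 0.15 with TMM scaling (SE; edgeR adjusted p = 2.76e-10 with TMM). REC8, the meiotic kleisin, was lower in MOLM-13 P-bodies, with 24 and 28 counts against 34 and 38 in the cytosol and a log2 change of -0.71 ± 0.28 (SE; edgeR adjusted p = 0.0324). Of the list, 1 of 3 genes tested was higher and 1 lower in MOLM-13. Of all genes tested, 32.4% were higher and 28.5% lower, so these counts are near the background. In HEL the 2 tested genes, REC8 (-0.05, edgeR adjusted p = 0.948) and RAD21L1 (0.30, 0.614), were not called.

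The genes outside all lists whose pattern over the 8 libraries was most like the mean log2 CPM of SMC1A, SMC3, RAD21, STAG1 and STAG2 were sought among 10834 genes with a mean CPM of at least 5. They were THUMPD3 (r = 1.00), ARHGAP11A (0.997), E2F8 (0.996), USO1 (0.995) and ATAD2 (0.995), and 14 genes had r of at least 0.99. The 5 subunits' own r with their mean ran from 0.53 for STAG1 to 0.97 for STAG2. The 8 libraries form 4 pairs, so r mostly compares 4 group levels and is given as a description.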
